A study of Mus musculus with 6 samples.

Results

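The sodium pump genes described here are 7 of the 22180 genes measured in mouse cumulus-oocyte complexes cultured with the MTOR inhibitor Torin1 or with its vehicle DMSO. They are Atp1b1, Atp1b2 and Atp1b3, which encode beta subunits of the Na,K-ATPase, and Fxyd1, Fxyd5, Fxyd6 and Fxyd7, which encode small FXYD membrane proteins that regulate it. The 7 were listed by name with the Torin1 and DMSO values of these arrays already known, so their differences between the groups are given as a description, without a test. A cumulus-oocyte complex is an immature oocyte with the somatic cumulus cells around it. Complexes of wildtype females, primed with equine chorionic gonadotropin for 46 h from day 21 and taken on day 23, were cultured with 5 µM Torin1 (3 samples) or with DMSO (3 samples, labelled as 5 µM too). All cultures of both groups contained milrinone, which blocks the oocyte phosphodiesterase PDE3 and holds the oocyte in meiotic arrest, and serum albumin. Each sample pooled complexes, with 100 per group stated, and the culture time is given as 14 h in 1 label and as 16 h in another.

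The Na,K-ATPase exports sodium and imports potassium at the cost of ATP, and the gradients it builds drive sodium-coupled uptake of amino acids and other solutes. Its alpha subunit carries out the transport cycle. The beta subunit is a glycoprotein that brings the alpha subunit to the plasma membrane and also takes part in contacts between cells, while FXYD proteins tune the pump's affinity and rate in particular tissues. In the early mouse embryo the pump is known for driving the fluid that fills the blastocoel.

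The 6 arrays had median intensities of 11.1 to 11.97, and the groups separated along the first principal component, which took 67.2% of the variance. Torin1 sample 3 stood apart: log2 differences between it and Torin1 samples 1 and 2 had an SD of 0.327 and 0.350 over genes, against 0.204 between Torin1 samples 1 and 2 and 0.212 to 0.240 among DMSO samples. Its description repeats the short name of Torin1 sample 2, but their values differ as these SDs show. Of 14 measured granulosa and cumulus markers, 14 lay above the median gene of the arrays, as did 18 of 19 oocyte markers, so markers of both labelled cell types were measured. No array value is 0, and a marker counted as dim here lies at or below the median gene, 4.17 on the scale log2(intensity + 1) used throughout. Of the markers of other cell types, those above it numbered 4 of 9 for theca and stroma, 3 of 8 for endothelium, 1 of 9 for immune cells and 3 of 7 for epithelium.

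Atp1b1, Atp1b2 and Atp1b3 were each lower in Torin1 complexes. Mean differences, Torin1 minus DMSO on the log2(intensity + 1) scale, were -3.91 for Atp1b2, -2.57 for Atp1b1 and -0.54 for Atp1b3. The 4 FXYD genes lay between -0.41 and 0.29, and Fxyd6, the one of them above the median gene, had an interval that overlapped that of Atp1b3. Fxyd1, Fxyd5 and Fxyd7 were dim in both groups and had little room to fall. Of the 7 genes, 5 had a difference below 0, and in limma's fit over all genes 3 of 7 passed an adjusted p of 0.05, all lower, and 2 to 4 passed under the alternatives. In that fit 12.1% of all genes passed in either direction (5.13% as higher and 6.94% as lower), and because the 7 were listed with this contrast known, nothing is read from their count. Over all genes 2678 passed, but 1730, 1763 or 1518 without DMSO sample 1, 2 or 3.

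**Figure D1:**
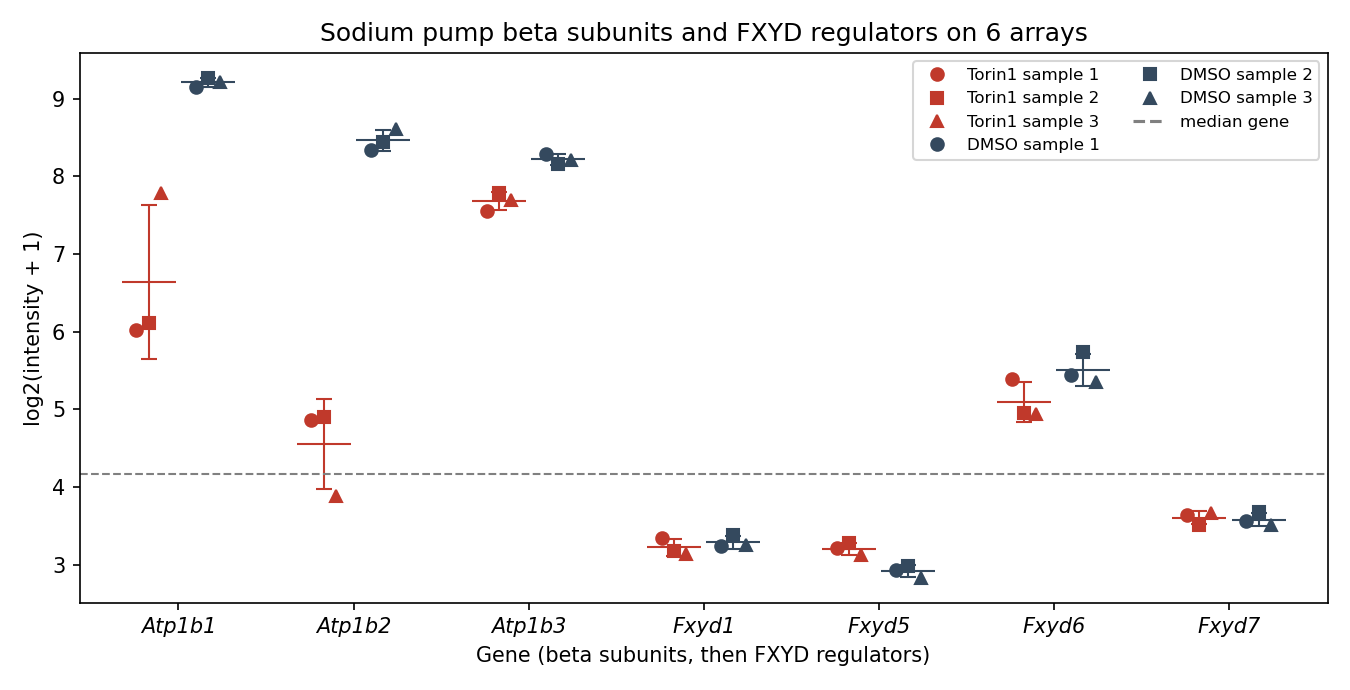
Level of the 7 genes on each array, as log2(intensity + 1) on the vertical axis, with Torin1 (red) left of DMSO (dark blue) for each gene; symbols mark the sample number, horizontal bars the group mean and error bars the SD of 3 samples, and the dashed line is the median gene. Atp1b2 is set apart by 3.44 between the nearest Torin1 and DMSO arrays, whereas Fxyd1, Fxyd5 and Fxyd7 lie below the dashed line in both groups.

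Atp1b2 encodes the beta-2 subunit, known in the nervous system as the adhesion molecule on glia. Its probe set had intensities of 28.2, 28.9 and 13.8 in the Torin1 samples, against 323, 349 and 388 in the DMSO samples. All 3 Torin1 arrays lay far below all 3 DMSO arrays, and Torin1 sample 3 was the lowest. On the log2 scale it averaged 4.55 ± 0.58 with Torin1 and 8.46 ± 0.13 with DMSO (SD, n = 3 each), a difference of -3.91 ± 0.27 (SE; 95% interval -4.54 to -3.29). The DMSO level was 15.1-fold the Torin1 level on this scale and 15.0-fold by the ratio of mean intensities. The Torin1 intensities were low, and with a pseudocount of 16 in place of 1 the difference was -3.24. Ordered by this difference among all 22180 genes, from the lowest, Atp1b2 had rank 3. With Torin1 sample 3 left out the difference was -3.58.

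Atp1b1 encodes the beta-1 subunit, the most widely expressed of the beta isoforms. Its intensities were 63.7, 68.3 and 220.3 in Torin1 samples 1, 2 and 3, against 568, 615 and 592 in DMSO samples 1, 2 and 3. The groups did not overlap, but Torin1 sample 3 lay well above the other Torin1 samples. The log2 level averaged 6.64 ± 1.00 with Torin1 and 9.21 ± 0.06 with DMSO (SD, n = 3 each). The difference was -2.57 ± 0.44 (SE; 95% interval -3.61 to -1.54), or 5.94-fold higher in DMSO. Without Torin1 sample 3 it was -3.15, and over the 6 fits that leave out 1 array each it ran from -3.15 to -2.26. In the same order it had rank 24.

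In Torin1 sample 3 these 2 transcripts moved apart. Relative to the mean of Torin1 samples 1 and 2, Torin1 sample 3 was 1.72 higher for Atp1b1, and 99.8% of all genes had a lower value of this difference. For Atp1b2 the same sample was lower, at -1.003, and only 0.821% of genes lay below that. Atp1b3 stood at 0.033 in this comparison. The array that stood apart over all genes therefore carried less of the Atp1b1 difference and more of the Atp1b2 difference than the other Torin1 arrays. It is 1 array, and no test was made.

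Atp1b3 encodes the beta-3 subunit, a further glycoprotein partner of the alpha chains that is expressed in many tissues. It had intensities of 187, 219 and 207 with Torin1, against 311, 285 and 295 with DMSO. The groups did not overlap, and their nearest arrays were 0.38 apart on the log2 scale. Means were 7.68 ± 0.12 with Torin1 and 8.22 ± 0.06 with DMSO (SD, n = 3 each). The difference was -0.54 ± 0.09 (SE; 95% interval -0.75 to -0.34), or 1.45-fold higher in DMSO. It was thus a small, even reduction beside the larger ones of Atp1b1 and Atp1b2. Leaving out each array gave -0.59 to -0.48.

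The order of the differences, Atp1b2 below Atp1b1 below Atp1b3, was kept in the main fit and under all 15 alternatives. The intervals of Atp1b2 and Atp1b1 overlapped, and that of Atp1b3 overlapped neither. Whether the differences of the 3 beta genes differ from each other was not tested, since the genes were chosen on them. The fourth beta gene, Atp1b4, whose product in placental mammals is a muscle protein rather than a pump subunit, was dim in both groups. It averaged 3.29 ± 0.04 with Torin1 and 3.27 ± 0.16 with DMSO (SD, n = 3 each), and limma gave an adjusted p of 0.928 for a difference of 0.03 ± 0.10 (SE). That sign turned under quantile normalization and under scaling of the arrays to one median.

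**Figure D2:**
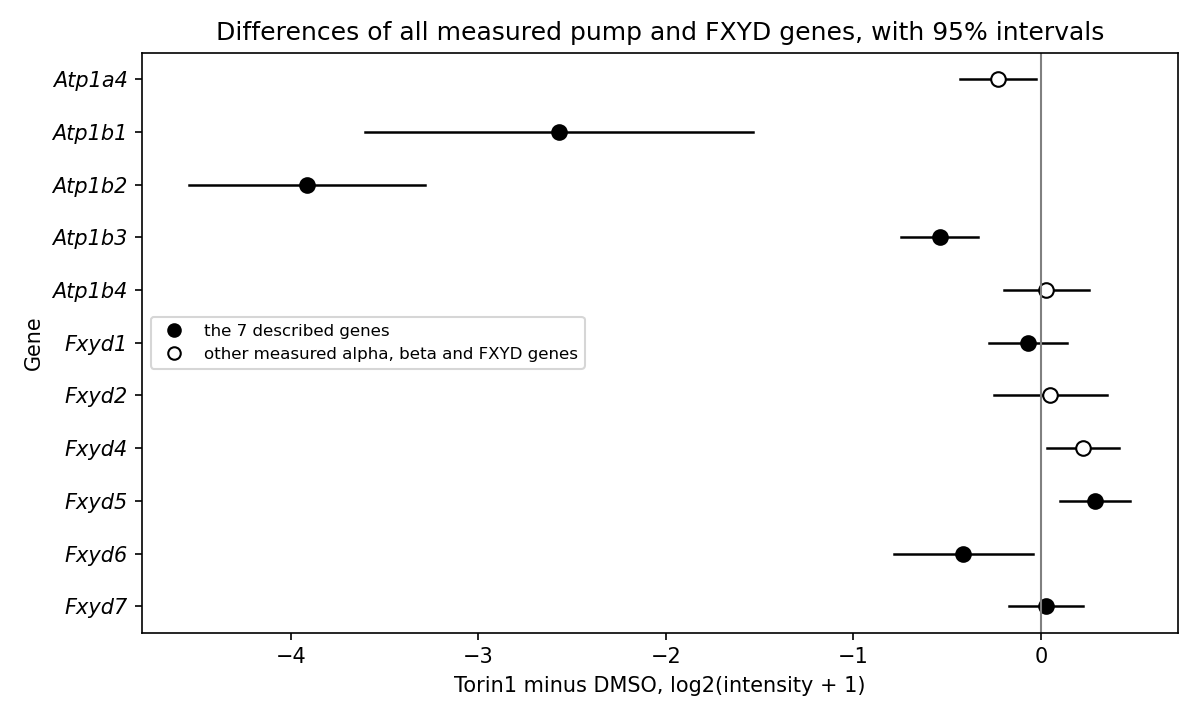
Torin1 minus DMSO on the log2(intensity + 1) scale (horizontal axis) for 11 measured genes, with 95% intervals of the limma fit. They are the beta and FXYD genes and, of the alpha genes, Atp1a4 alone. Filled points are the 7 described genes and open points the other 4. Atp1b2 and Atp1b1 lie at -3.91 and -2.57, and every FXYD gene lies between -0.41 and 0.29.

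The start regions of Atp1b1, Atp1b3 and Fxyd6 are shown because the first 2 genes were lower together, at different sizes, and Fxyd6 is the only FXYD gene above the median gene. RefSeq windows of GRCm38.p6, from 250 bases before to 50 bases after a start, were used for 5 of the 7 genes, with 6 windows in all; Atp1b2 and Fxyd7 are not among them. Sequences read 5′ to 3′ on the gene's strand. Capitals mark matches on either strand to any of 6 motifs. The GC box was searched as GGGCGG, and the box of the letters CCAAT under that spelling. The TATA box was searched as TATAAA, and the site of FOXO factors as GTAAACA. The full cAMP response element was searched as TGACGTCA, and the E-box of basic helix-loop-helix factors as CACGTG. A match is a match of letters and not a shown site.
Atp1b1, chr1:164458306-164458605, minus strand: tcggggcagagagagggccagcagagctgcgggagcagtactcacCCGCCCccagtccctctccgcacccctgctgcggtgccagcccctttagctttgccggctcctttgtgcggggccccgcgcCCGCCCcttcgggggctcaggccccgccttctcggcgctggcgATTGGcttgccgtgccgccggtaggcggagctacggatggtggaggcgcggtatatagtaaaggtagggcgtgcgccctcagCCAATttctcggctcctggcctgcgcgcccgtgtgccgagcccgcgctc
Atp1b3, upstream start, chr9:96364382-96364681, minus strand: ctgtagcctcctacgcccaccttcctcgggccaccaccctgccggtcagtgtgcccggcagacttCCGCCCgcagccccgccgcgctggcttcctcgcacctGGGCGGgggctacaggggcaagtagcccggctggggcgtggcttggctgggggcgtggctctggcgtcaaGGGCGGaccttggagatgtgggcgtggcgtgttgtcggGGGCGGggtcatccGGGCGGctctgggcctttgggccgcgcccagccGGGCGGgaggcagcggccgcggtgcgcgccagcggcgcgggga
Atp1b3, downstream start, chr9:96363666-96363965, minus strand: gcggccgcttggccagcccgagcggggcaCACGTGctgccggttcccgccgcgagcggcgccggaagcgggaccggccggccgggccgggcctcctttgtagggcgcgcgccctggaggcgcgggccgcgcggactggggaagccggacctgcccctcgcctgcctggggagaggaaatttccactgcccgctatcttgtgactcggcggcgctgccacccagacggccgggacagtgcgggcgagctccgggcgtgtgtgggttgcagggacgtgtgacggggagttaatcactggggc
Fxyd6, chr9:45369935-45370234, plus strand: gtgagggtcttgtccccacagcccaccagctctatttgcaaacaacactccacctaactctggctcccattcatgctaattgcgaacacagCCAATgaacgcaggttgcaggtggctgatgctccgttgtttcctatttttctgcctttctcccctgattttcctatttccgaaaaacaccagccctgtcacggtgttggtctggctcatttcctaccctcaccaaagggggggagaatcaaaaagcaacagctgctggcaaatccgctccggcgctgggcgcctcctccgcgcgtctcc

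The windows of Atp1b1 and Atp1b3 were rich in G and C, with 71% for Atp1b1 and 76% and 74.7% for the Atp1b3 starts, against a median of 52.7% over all 32851 windows. Fxyd6 had 54.3%, Fxyd1 58.7% and Fxyd5 57.3%. GC boxes numbered 2 in Atp1b1 and 6 in the upstream window of Atp1b3, while 35.7% of all windows held at least 1. Atp1b1 also had 2 CCAAT boxes and Fxyd6 had 1, a motif found in 37.4% of all windows. The downstream Atp1b3 window held 1 E-box (7.15% of all windows), and Fxyd1 held 1 TATA box (13.6%). None of the 6 windows held the FOXO letters (3.65% of all windows) or the full cAMP response element (1.79%). No listed motif was shared by all 3 windows of Atp1b1 and Atp1b3, and no match overlapped another.

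Of the FXYD genes, Fxyd6 was the only one measured above the median gene. Its product, phosphohippolin, is a pump regulator best known from brain and inner ear. Intensities were 41.0, 30.0 and 29.7 with Torin1, against 42.4, 52.3 and 39.8 with DMSO. Torin1 samples 2 and 3 lay below every DMSO sample, but Torin1 sample 1 lay among them, so the groups overlapped. The log2 level averaged 5.10 ± 0.26 with Torin1 and 5.51 ± 0.20 with DMSO (SD, n = 3 each), a difference of -0.41 ± 0.16 (SE; 95% interval -0.78 to -0.04). Leaving out each array gave -0.56 to -0.30. The interval is not adjusted for the number of genes, and Fxyd6 did not pass limma's adjusted threshold in the main fit or under any alternative.

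Fxyd5 encodes dysadherin, an FXYD protein with a long extracellular stretch that is also known to weaken cell adhesion. It was the only FXYD gene of the described set with no overlap between groups, and it was higher with Torin1. Its intensities were 8.28, 8.67 and 7.68 with Torin1, against 6.63, 6.87 and 6.12 with DMSO. All 6 values were dim, which leaves the size of the difference uncertain. The log2 means were 3.20 ± 0.08 with Torin1 and 2.91 ± 0.07 with DMSO (SD, n = 3 each), and the difference was 0.29 ± 0.08 (SE; 95% interval 0.10 to 0.48), or 0.10 with a pseudocount of 16. That interval is not adjusted for the number of genes, and Fxyd5 did not pass limma's adjusted threshold in the main fit. In all, 4 of the 7 genes did not overlap between groups, as did 28.6% of all genes.

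Fxyd1, which encodes phospholemman, the pump regulator of heart and skeletal muscle, was dim and overlapped. It averaged 3.22 ± 0.11 with Torin1 and 3.29 ± 0.08 with DMSO (SD, n = 3 each), with a difference of -0.07 ± 0.09 (SE; 95% interval -0.28 to 0.14). Fxyd7, an FXYD gene best known from brain, averaged 3.60 ± 0.09 with Torin1 and 3.58 ± 0.09 with DMSO. Its difference of 0.03 ± 0.08 (SE; 95% interval -0.17 to 0.22) changed sign under quantile normalization, under scaling of the arrays to one median, and in some fits that leave out an array. No intensity on any array was below 2.25, so for these 2 genes a fall of the size seen in Atp1b1 or Atp1b2 could not have been measured. Fxyd5, Fxyd7 and Fxyd1 are consecutive protein-coding genes on chromosome 7 in RefSeq, and Fxyd6 lies beside Fxyd2 on chromosome 9. The 3 neighbours on chromosome 7 had differences of 0.29, 0.03 and -0.07, in that order along the chromosome.

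Of the 6 measured FXYD genes, those described above included, limma's main fit called 0 higher and 0 lower. Fxyd4 and Fxyd2 are the ones that remain. Fxyd4, which encodes a regulator known from kidney collecting duct and colon, had 3.30 ± 0.07 with Torin1 and 3.08 ± 0.09 with DMSO (SD, n = 3 each), a difference of 0.22 ± 0.08 (SE; limma adjusted p = 0.144). Fxyd2, the gamma subunit gene of kidney, had 3.03 ± 0.06 with Torin1 and 2.98 ± 0.25 with DMSO, with an adjusted p of 0.896 in limma for a difference of 0.05 ± 0.13 (SE). Both were dim in both groups. The groups of Fxyd4 did not overlap, as for Fxyd5, and both of these genes were higher with Torin1. The sign of Fxyd2 turned without DMSO sample 1 or 3. A probe set that names Fxyd3 together with Lgi4 differed by -0.09 and cannot be given to either gene.

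**Figure D3:**
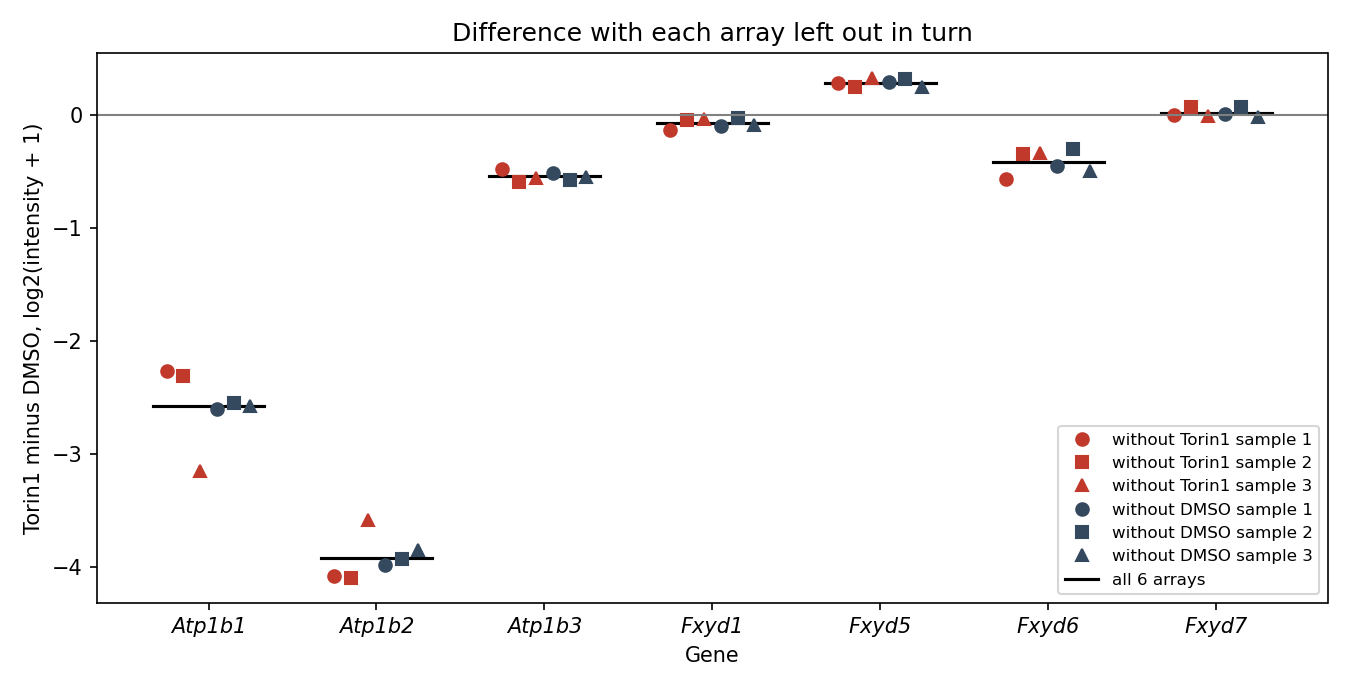
Torin1 minus DMSO on the log2(intensity + 1) scale (vertical axis) for the 7 genes with all 6 arrays (black bars) and with each array left out (symbols; red for a Torin1 array, dark blue for a DMSO array). Atp1b1 moves between -3.15 and -2.26 and is lowest without Torin1 sample 3, and Atp1b2 stays between -4.09 and -3.58.

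Of the alpha subunits, Atp1a4, the catalytic isoform of sperm, is the one described here. It was dim, with intensities of 8.45, 9.76 and 9.66 with Torin1, against 11.8, 10.5 and 10.8 with DMSO. The groups did not overlap, but they lay close together. Its difference was -0.23 ± 0.09 (SE) and did not pass the test (limma adjusted p = 0.157). The other alpha genes are not reported here, so nothing is read from Atp1a4 about the alpha subunits as a set.

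The beta subunit differences stood beside lower signal of most granulosa and cumulus markers. Granulosa and cumulus markers had 10 of 14 members lower and 1 higher in limma, with a median difference of -1.34, against 0.01 over all genes. Their summed intensity was 2926 to 3419 in Torin1 samples and 5501 to 5687 in DMSO samples. These markers did not move alike. Inhba was the one that was higher, at 2.06, and Nr5a1 (0.004), Gata4 (-0.03) and Wt1 (-0.27) did not pass. The oocyte markers had 2 of 19 higher and 0 lower, a median of 0.21, and sums of 8638 to 9658 with Torin1 and 7813 to 8303 with DMSO. All 19 differences lay above 0, between 0.08 and 0.39. In limma 10 of these 19 had an unadjusted p below 0.05, against 5328 of all 22180 genes. Theca and stroma markers summed to 149 to 168 with Torin1 and 449 to 525 with DMSO, with 3 of 9 lower, and among them Acta2, the smooth muscle actin gene that granulosa cells can also express, fell by 2.87. Endothelial markers summed to 166 to 285 with Torin1 and 121 to 124 with DMSO, and Cdh5 was the 1 of 8 that passed, at 2.33. Immune markers summed to 94.6 to 100.6 with Torin1 and 84.4 to 91.2 with DMSO, and Cd68 was the 1 of 9 that passed, at 0.54. Epithelial markers summed to 379 to 482 with Torin1 and 405 to 425 with DMSO, and 0 of 7 passed in limma, with 0 at an unadjusted p below 0.05. In a bulk sample, fewer cells of a type and less RNA per cell cannot be told apart, and the part of these markers in the beta subunit differences was not tested.

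Over the 6 arrays, the profile of Atp1b2 lay closest to that of Gstm2, a glutathione transferase gene. Closeness was the root mean square distance of the log2 values, each centred on the gene's mean, and Gstm2 was 0.166 away. Amhr2, the receptor gene of anti-Müllerian hormone, followed at 0.270 and Slc18a2, a vesicular monoamine transporter gene, at 0.384. Smpdl3b and Hpgd, which encodes the enzyme that inactivates prostaglandins, were 0.511 and 0.527 away. Gstm2, Amhr2 and Slc18a2 also had their lowest value in Torin1 sample 3, at 2.82, 2.96 and 4.82, while Smpdl3b and Hpgd, at 4.89 and 4.26, had there their highest Torin1 value. For Fxyd5, the described gene with the highest difference, the nearest profiles were those of Lrrc7, Casc1, Tsr3, Sfswap and Atp6v1f. They lay within 0.021 to 0.039, on a profile that itself spans little.

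**Figure D4:**
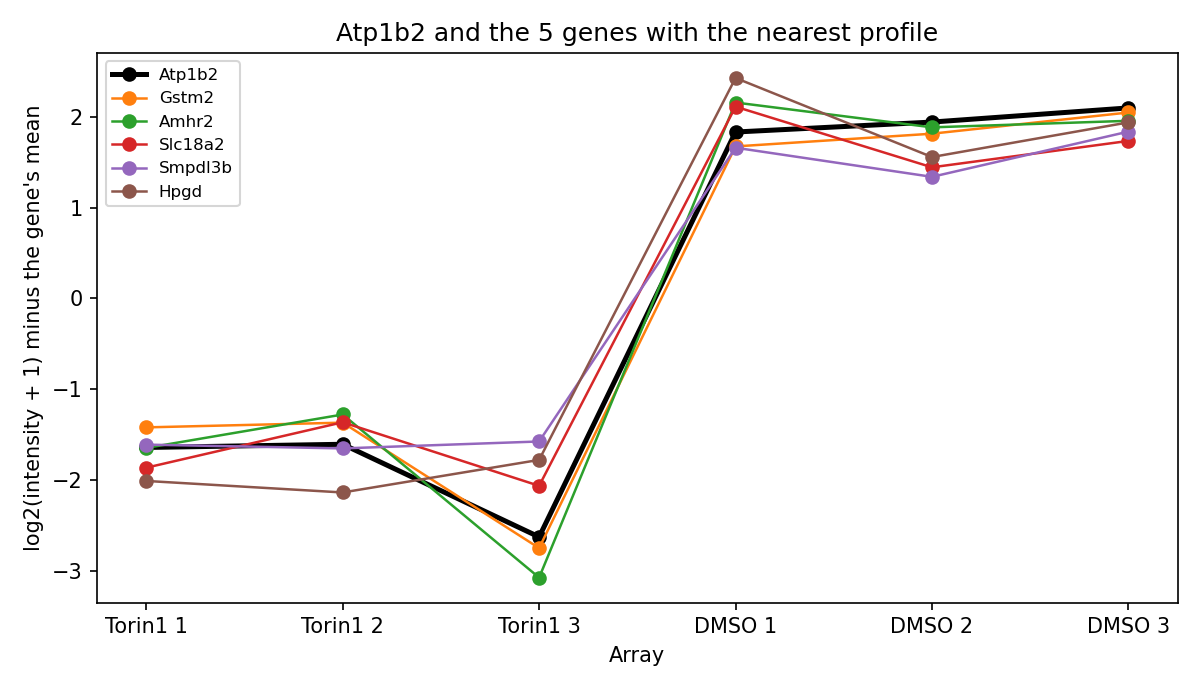
log2(intensity + 1) of Atp1b2 (thick black line) and of the 5 genes with the nearest profile, each minus its own mean over the 6 arrays (vertical axis), by array (horizontal axis). Gstm2, Amhr2 and, less deeply, Slc18a2 share the dip of Atp1b2 at Torin1 sample 3, and Smpdl3b and Hpgd do not.

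Genes that act on the pump or share its ions were examined as 6 further lists with 80 measured members. Of these 13 passed the test, 6 higher and 7 lower, or 16.2% against 12.1% of all genes. Without DMSO sample 2 the higher ones numbered 3. Calls were made in 3 of the lists, and the remaining lists held none.

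Among 24 partners, kinases and ubiquitin ligases that act on the pump or on sodium transport, 4 rose, 4 fell and 16 did not pass (median difference 0.01). Sik1, the salt-inducible kinase gene, had log2 levels of 8.80, 8.50 and 9.29 with Torin1, against 7.37, 7.34 and 7.08 with DMSO. It rose by 1.60 ± 0.20 (SE; limma adjusted p = 0.00307). Ank3, the gene of ankyrin-G, which ties the pump to the membrane skeleton in epithelia, fell by 1.38 ± 0.15 (SE; limma adjusted p = 0.00186), with 7.22, 7.31 and 7.72 in Torin1 samples, against 8.97, 8.75 and 8.65 in DMSO samples. These groups were clearly apart. Stk39, whose kinase SPAK acts on cation-chloride cotransporters, fell by 0.82 ± 0.14 (limma adjusted p = 0.0102).

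Sgk1, a kinase gene that raises sodium transport in epithelia, had 6.18, 6.14 and 7.40 with Torin1, against 5.27, 5.16 and 5.42 with DMSO. Like Atp1b1, it was highest among the Torin1 arrays in sample 3. Its rise of 1.29 ± 0.32 (SE) passed in limma with an adjusted p of 0.0441, but in only 2 of 6 fits that leave out an array (adjusted p up to 0.133). It also missed the threshold with a pseudocount of 16 (adjusted p = 0.109) and with arrays scaled to one median (adjusted p = 0.0549). The other genes of this list that passed, named after their values were seen, were Nedd4l (0.63) and Arrb2 (0.56), which were higher, and Nedd4 (-0.72) and Prkaca (-0.46), which were lower.

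Of 19 measured sodium exchangers and bicarbonate cotransporters, with their scaffold, 2 rose and 2 fell (median difference 0.06). Slc8a1, the plasma membrane sodium-calcium exchanger that uses the sodium gradient to export calcium, had 4.07, 4.46 and 4.93 with Torin1, against 6.27, 5.60 and 5.62 with DMSO. It fell by 1.34 ± 0.26 (SE; limma adjusted p = 0.0171), a call that was lost without Torin1 sample 2 (adjusted p = 0.0533) and with the replicate number as a block (adjusted p = 0.0642). Slc9a7, a sodium-proton exchanger of the Golgi, fell by 1.21 ± 0.12 (limma adjusted p = 0.0013). The groups of both genes were apart on every array. Slc4a8, a sodium-driven chloride-bicarbonate exchanger, rose by 0.71 ± 0.08 (limma adjusted p = 0.00268). Slc9a3r1, which encodes the scaffold NHERF1, rose by 0.65 ± 0.13 (limma adjusted p = 0.0215) and lost its call without Torin1 sample 1, DMSO sample 1 or DMSO sample 2 (adjusted p up to 0.0784).

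Of 8 cation-chloride cotransporters only Slc12a7, a potassium-chloride cotransporter gene, passed. It fell by 0.84 ± 0.09 (SE; limma adjusted p = 0.0015), with 5.67, 5.77 and 5.70 in Torin1 samples, against 6.41, 6.65 and 6.60 in DMSO samples. In limma 0 of 11 genes of calcium pumps and their small regulators passed, though 4 had an unadjusted p below 0.05, and their differences lay between -0.40 and 0.44. For 15 sodium channel subunit genes and 3 proton-potassium pump genes 0 passed and 0 had an unadjusted p below 0.05. None of these 18 lay above the median gene.

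**Figure D5:**
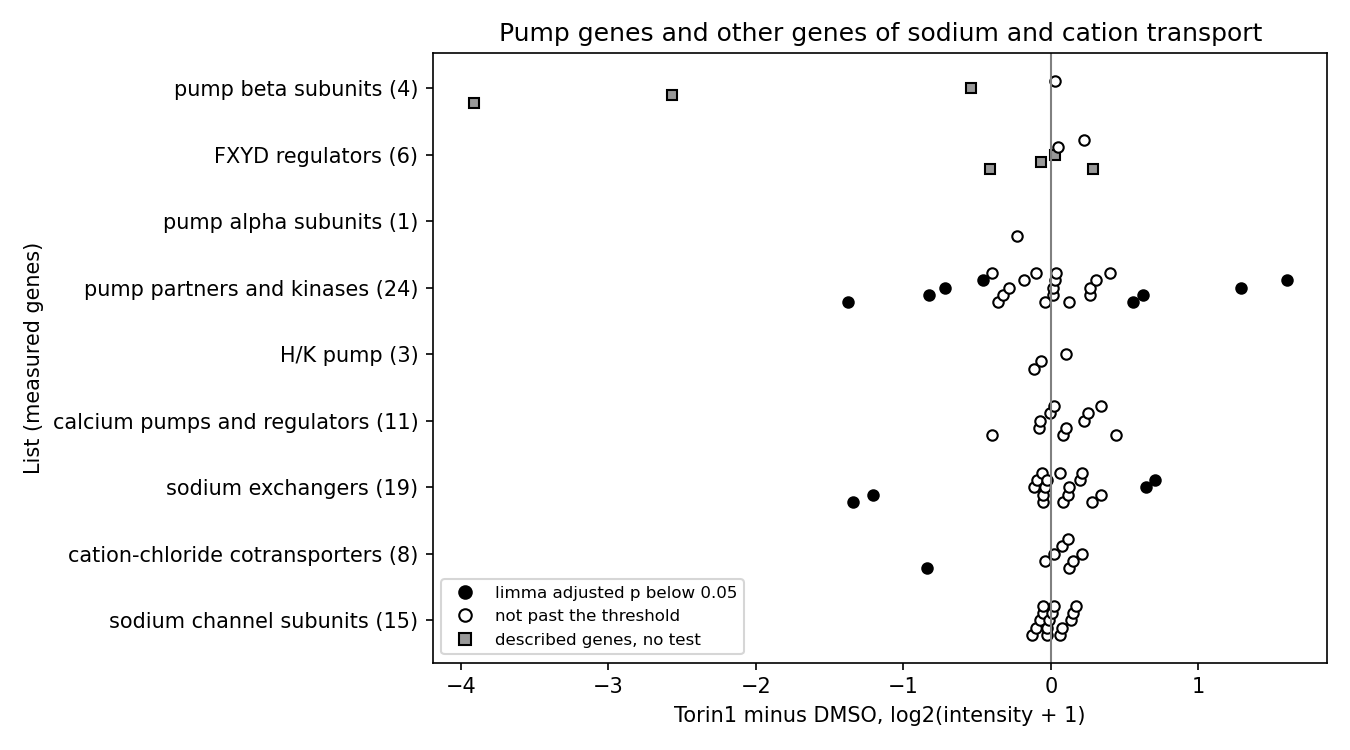
Torin1 minus DMSO on the log2(intensity + 1) scale (horizontal axis) for each measured gene of the pump, FXYD and related lists (rows, with the number of genes measured); grey squares are the 7 described genes, shown without a test, black points passed limma's adjusted p of 0.05 in the fit over all genes, and open points did not. Atp1b2 and Atp1b1, at -3.91 and -2.57, lie left of every gene of the other lists, whose lowest value is -1.38. The 7 genes were listed with these values known, so nothing is read from that position.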

How the data were processed

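RNA of 3 Torin1 and 3 DMSO samples, grouped by their titles, was measured on 1 array each. The deposited intensities, 1 per probe set and array on a linear scale, were made by the authors; the submitters' processing notes name RMA, GCOS and Expression Console 1.1 from Affymetrix. RMA normalizes the arrays to a common distribution, so a difference is relative to the other transcripts. Per-probe background was not used here. The labels do not say whether the samples came from separate mice or days, and the spread behind the p-values is that of these samples alone and could be technical.

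Of 41345 probe sets, 23521 named 1 gene, 1814 named several and 16010 were unnamed here. The brightest probe set by mean over all arrays stood for a gene, giving 22180 genes. Each of the 7 genes has a single such probe set. Values were analysed as log2(intensity + 1), which understates the change of dim genes, with limma 3.58.1 in R 4.3.3 (lmFit, eBayes, two-sided, no covariate, no filter), Benjamini-Hochberg adjusted over all genes. Standard errors, 95% intervals and adjusted p come from that fit, which was checked on simulated data. The number of arrays limits the precision.

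The genes and lists were chosen with earlier results of these data known. Named were every measured beta and FXYD gene and, of the alpha genes, Atp1a4 alone. Up to 4 genes with the largest change that passed in each related list were also named. So were the 5 genes with the profile nearest to the lowest and the highest of the 7. Alternatives covered the pseudocount, a filter on dim genes, scaling, probe set choice, variance model, a replicate block, Torin1 samples 2 and 3 as 1 sample, and leaving out each array.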

Additional observations from a re-analysis of the deposited data

How the results depend on the processing

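The differences of Atp1b1, Atp1b2, Atp1b3, Fxyd1, Fxyd5 and Fxyd6 kept their sign under each alternative that measured them, and Fxyd7 changed sign under some. Of the 7 genes, 5 were below 0 in the main fit and 4 to 6 under the alternatives, where 4 comes from the filter that keeps only 4 of them. Atp1b4 turned to -0.0054 under quantile normalization and to -0.0067 with arrays scaled to one median; over the fits that leave out 1 array it ran from -0.047 to 0.11, and Fxyd2 from -0.026 to 0.19. Those same fits called 1518 to 3083 genes, 655 to 1389 of them higher and 844 to 1694 lower, and 3 to 6 of the related genes higher. Deviations from the group means, correlated over genes, gave -0.207, -0.299 and -0.148 for same-numbered samples and -0.115 to 0.310 for samples of different numbers, so the numbers were not taken as pairs. For Torin1 samples 1, 2 and 3 the highest value was with DMSO samples 2, 3 and 1, at 0.310, 0.305 and 0.112. Whether samples were paired under other numbers was not tested. With the replicate block 1565 genes passed, 657 higher and 908 lower, and Atp1b3 did not. Fxyd5 passed with an intensity trend and robust estimation and without Torin1 sample 3. As the 7 genes were listed with this contrast known, neither outcome is read as a test of Atp1b3 or Fxyd5. The causes were not tested. Most FXYD genes lie below the median gene, where a change may be understated.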
